A study of Mus musculus with 61 samples.

Results

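ABC transporters are membrane proteins that hydrolyse ATP to move lipids, bile salts, conjugates and drugs across membranes. The genes described here are those whose symbol begins with Abc, a subfamily letter from a to g and a digit. The array carried 48 such genes on 105 probes, and 36 of them, on 59 probes, were detected (p under 0.05) on 5 or more arrays. The brightest probe of each of these 36 members was followed, and they stand among 12157 genes tested in the same way. In the hepatocyte, ABC transporters of the canalicular membrane secrete the constituents of bile, and others in the blood-facing membrane return organic anions to the blood when bile flow fails. Transporters built from paired subunits work in mitochondria, lysosomes and peroxisomes, and the subfamilies E and F have no membrane span and act in translation. During inflammation the bile transporters of the liver are known to fall, and IL-6, which signals through the receptor subunit gp130, is one of the cytokines linked to this.

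Hepatocytes were isolated from gp130- mice, in which Cre under the albumin promoter deletes the floxed gp130 gene (Il6st) in hepatocytes, and from gp130flox/flox control mice without Cre, which the labels also call wild type. All animals were of strain C57BL/6, and their ages were not given in the sources used here. All cells were starved of serum overnight and then kept with 200 ng/mL IL-6 for 1, 3, 6 or 12 h, or collected without it at 0 h. No array held cells cultured beyond 0 h without IL-6, so IL-6 and time in culture cannot be told apart. There were 61 arrays, 28 from gp130- and 33 from gp130flox cells. Each array of the signal table carries a column number. The arrays that share a genotype and a number form a preparation, which gave 6 gp130- and 7 gp130flox preparations. The preparations fell into sets, numbers 6 to 11 (36 arrays, 8 preparations) and numbers 1 to 4 (25 arrays, 5 preparations). In numbers 6 to 11, 840 genes (6.91%) were higher and 1004 (8.26%) lower by over 1 on the log2 scale, without overlap of preparations. The genotype comparison is therefore given within each set. The labels do not say what the numbers stand for or how the cells of a preparation were obtained, so the p-values measure the spread between these samples only.

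The arrays detected between 15257 and 19256 probes. Values are log2 signals after background correction, where an offset of 16 puts the floor at 4, and the dimmest detected probe of an array lay between 4.47 and 4.83. Calls required a fold above 1.5 and an adjusted p below 0.05. Il6st, the gene that was deleted, read between 4.53 and 6.33 in the gp130- arrays of numbers 6 to 11, against 5.85 to 7.18 in the gp130flox arrays, and these ranges overlapped. In numbers 1 to 4 it read between 4.86 and 5.54 in gp130- arrays, against 5.71 to 7.11 in gp130flox arrays, without overlap. Il6st was called lower in gp130- cells over all arrays at 3 h (-1.58 ± 0.24, SE, adjusted p = 2.9e-05) and 6 h (-0.92 ± 0.24, adjusted p = 0.028), and the place of its probe relative to the deleted exons was not known here. The array of gp130- preparation 9 at 3 h had the lowest Il6st signal of its genotype, 4.53, while the other arrays of this preparation read 5.99 to 6.33. Xist, which is transcribed from the inactive X chromosome of females, averaged 8.86 and 8.26 in gp130- preparations 2 and 3, and 4.17 to 4.25, near the floor, in each of the other 11 preparations. The sex of the animals was not given in the sources used here, and in numbers 1 to 4 these were 2 of 3 gp130- preparations and none of gp130flox. Member counts over all arrays, within numbers 1 to 4 and between the sets are also given without them. So are the calls of Abca6 over all arrays, Abca3 and Abcc4. Other results that use them, among them Il6st, Nr1h4, Nr1i2, the set term and the test between the sets, are not. In these cultures, fewer cells of a type and less RNA per cell cannot be told apart.

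Within numbers 6 to 11, transporters of bile constituents were higher in gp130- than in gp130flox hepatocytes. Of the 36 members, 10 (27.8%) were called higher at 1 time or more, where 7.53% of all genes were, and 0 were called lower, where 7.76% were; at an unadjusted p under 0.05 limma gave 4 members lower at 1 time or more. The called members were Abcb11, Abcb4, Abcc2, Abcg5, Abcg8, Abcc4, Abcc6, Abca6, Abca8a and Abca8b. By time, 4 members were called higher at 0 h (1.53% of all genes), 5 at 1 h (3%), 4 at 3 h (4.01%), 6 at 6 h (4.57%) and 6 at 12 h (3.64%). At 0 h, before IL-6, Abcb4, Abcg5, Abcc4 and Abca8a were thus already apart. The median difference over the 36 members was 0.05, 0.19, 0.11, 0.07 and 0.11 at 0, 1, 3, 6 and 12 h on the log2 scale, beside -0.00, 0.01, -0.00, -0.02 and -0.01 over all genes. Over preparations, averaged across times, 9 members had all gp130- values above all gp130flox values, as did 10.8% of all genes. For 2 members, Abcc3 and Abcc5, all gp130- values lay below, as for 11.3% of all genes.

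**Figure D1:**
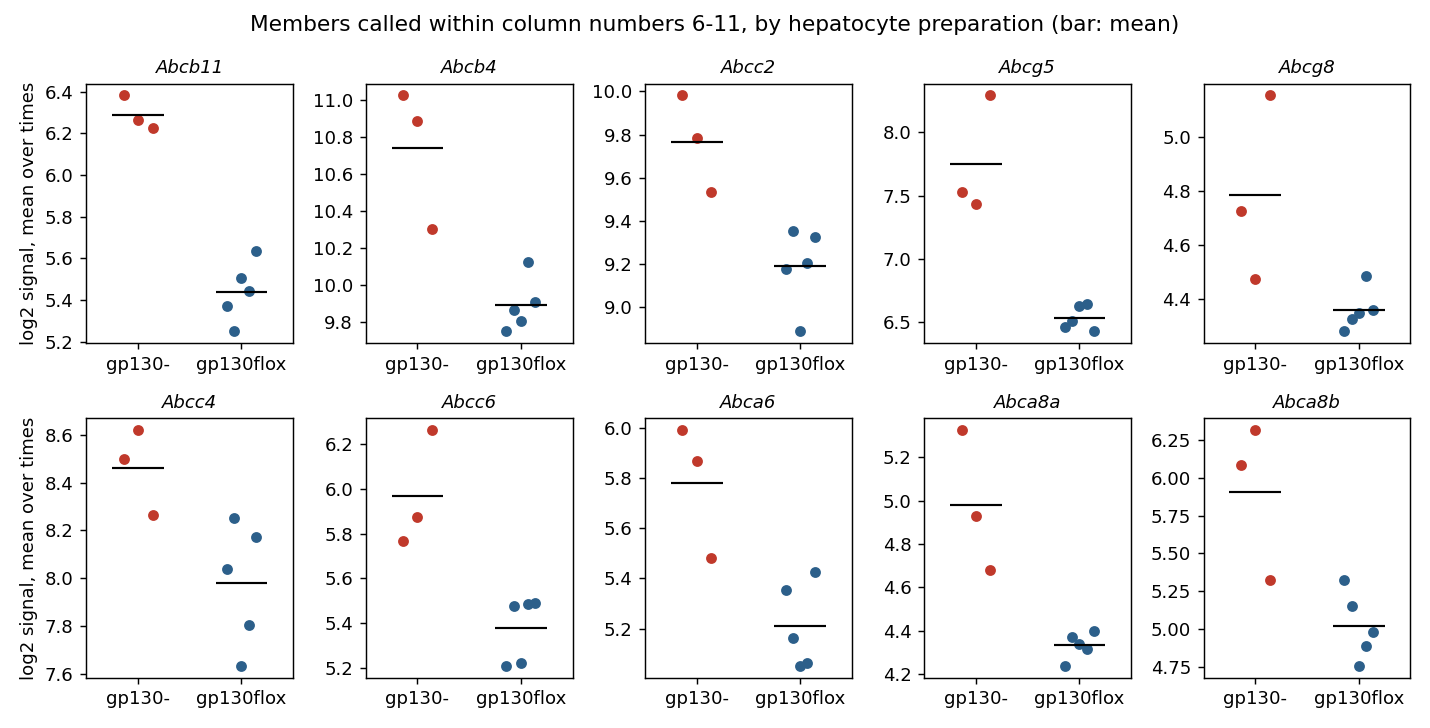
Log2 signal (y axis) of the 10 members called within numbers 6 to 11. Each point is 1 preparation averaged over its times (3 gp130-, left; 5 gp130flox, right) and the bar is the mean of the points; 9 of these members show no overlap and Abcg8 does.

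Of the 8 genes listed for canalicular export, 6 were tested and 5 of these were called higher in gp130- cells of numbers 6 to 11; the median over the 6 was 0.47, 0.70, 0.73, 0.95 and 0.75 at 0, 1, 3, 6 and 12 h. Abcb11, the bile salt export pump, averaged 6.38, 6.26 and 6.22 in gp130- preparations 6, 7 and 9, against 5.50, 5.44, 5.64, 5.37 and 5.25 in gp130flox preparations 7, 8, 9, 10 and 11. The lowest gp130- preparation stood above the highest gp130flox one. At 3 h it read 6.50 and 6.19 in gp130- arrays, against 5.11, 5.10, 5.98 and 4.95 in gp130flox arrays. At 6 h it read 6.57 and 6.33 in gp130- arrays, against 5.37, 5.34, 5.58, 5.55 and 4.80 in gp130flox arrays. No array of the other genotype fell within the range of gp130- at either time, although gp130flox preparation 9 came near at 3 h. The difference was 0.61 ± 0.20 at 0 h (SE, adjusted p = 0.080), 0.80 ± 0.21 at 1 h (0.014), 1.06 ± 0.23 at 3 h (0.0031), 1.12 ± 0.23 at 6 h (0.00091) and 0.71 ± 0.20 at 12 h (0.016). The calls at 3 and 6 h held without any 1 preparation. That at 1 h was lost without gp130- 6 (0.71, adjusted p = 0.092) or gp130- 7 (0.68, 0.13), as without gp130flox 8 (0.78, 0.058) or gp130flox 11 (0.67, 0.057). That at 12 h was lost without gp130- 7 (0.74, 0.054) or gp130- 9 (0.58, 0.075).

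The promoter of Abcb11 is shown because the gene is a known target of the bile acid receptor Nr1h4 (FXR). Nr1h4 was itself higher in gp130- cells, and its part in the difference of Abcb11 was not tested. The windows are RefSeq sequences of the mouse build GRCm38.p6, from 250 bases before to 50 bases after the start, and 28 of the 36 members had at least 1 of them, 33 in all. The nuclear receptor motif AGGTCA, searched on both strands, is in 16.3% of all 32851 windows and in 5 of the members' 33 (15.2%). These windows belong to Abcb11, Abcb6, Abcc10 (both of its windows) and Abcc2. The STAT motif TTCNNNGAA is in 8.3% of all windows and in 2 of the members' (6.1%), those of Abcc4 and Abcc5; no match of one motif overlaps a match of the other. Capitals mark AGGTCA, which lies on the reverse strand 56 bases before the start in Abcb11 (chr2:69342567-69342866, minus strand) and on the forward strand 49 bases before it in Abcc2 (chr19:43782058-43782357, plus strand).
Abcb11: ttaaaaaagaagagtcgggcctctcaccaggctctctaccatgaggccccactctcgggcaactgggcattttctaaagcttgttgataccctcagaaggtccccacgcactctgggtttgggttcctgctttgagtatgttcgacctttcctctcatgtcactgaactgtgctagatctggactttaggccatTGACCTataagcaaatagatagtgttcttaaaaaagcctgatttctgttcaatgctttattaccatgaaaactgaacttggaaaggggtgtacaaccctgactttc
Abcc2: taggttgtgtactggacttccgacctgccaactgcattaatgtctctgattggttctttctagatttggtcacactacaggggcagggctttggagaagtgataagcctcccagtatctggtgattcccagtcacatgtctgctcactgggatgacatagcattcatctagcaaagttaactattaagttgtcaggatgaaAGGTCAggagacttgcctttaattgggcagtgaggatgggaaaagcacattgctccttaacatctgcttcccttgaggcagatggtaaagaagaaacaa

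Abcb4, which flips phosphatidylcholine into bile, averaged 11.02, 10.89 and 10.30 in gp130- preparations 6, 7 and 9, against 9.81, 10.13, 9.91, 9.75 and 9.87 in gp130flox preparations 7 to 11. At 1 h its arrays read 11.17, 11.08 and 10.29 in gp130- cells, against 9.53, 9.81, 10.01 and 9.83 in gp130flox cells. Preparation 9 was the lowest of gp130- and still above all gp130flox arrays of that time. The difference was called at 0 h (0.81 ± 0.21, SE, adjusted p = 0.022), 1 h (1.05 ± 0.22, 0.0022), 6 h (1.01 ± 0.25, 0.0057) and 12 h (0.79 ± 0.21, 0.014), and was 0.61 ± 0.25 at 3 h (0.15). The call at 1 h held without any 1 preparation. That at 6 h was lost without gp130- 6 (0.78, 0.11), and that at 12 h without gp130- 7 (0.62, 0.15) or gp130flox 9 (0.72, 0.050). That at 0 h was lost without gp130- 6 (0.57, 0.21) or 7 (0.80, 0.087), as without gp130flox 7 (0.81, 0.063), 10 (0.74, 0.072) or 11 (0.76, 0.084).

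Abcc2 (Mrp2), which exports bilirubin and other conjugates into bile, averaged 9.98, 9.79 and 9.53 in gp130- preparations 6, 7 and 9, against 8.89, 9.20, 9.33, 9.18 and 9.35 in gp130flox preparations 7 to 11. At 12 h its arrays read 9.56, 9.70 and 9.95 in gp130- cells, against 8.30, 8.92, 8.66, 9.07 and 9.02 in gp130flox cells. The genotypes did not overlap at this time. The difference was 0.33 at 0 h (adjusted p = 0.56), 0.60 at 1 h (0.13) and 0.11 at 3 h (0.87), and it was called at 6 h (0.89 ± 0.25, SE, 0.017) and 12 h (0.94 ± 0.22, 0.0031). The call at 12 h held without any 1 preparation, and that at 6 h was lost without gp130- 6 (0.64, 0.23) or gp130- 7 (1.13, 0.057).

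Abcg5 and Abcg8 are the partner subunits that together secrete cholesterol and plant sterols into bile. Abcg5 averaged 7.53, 7.43 and 8.29 in gp130- preparations 6, 7 and 9, against 6.63, 6.64, 6.43, 6.46 and 6.51 in gp130flox preparations 7 to 11. At 3 h its arrays read 7.60 and 8.90 in gp130- cells, against 6.32, 6.54, 6.68 and 6.50 in gp130flox cells. The gp130- values stood apart at each time, with preparation 9 the highest wherever it was measured. The difference was called at 0 h (0.89 ± 0.23, SE, adjusted p = 0.022), 1 h (1.29 ± 0.25, 0.00065), 3 h (1.74 ± 0.28, 6.3e-05), 6 h (1.24 ± 0.27, 0.0019) and 12 h (1.03 ± 0.23, 0.0030). The calls at 1, 3 and 12 h held without any 1 preparation or array. That at 6 h was lost only without the gp130- array of preparation 7 (1.21, 0.050). That at 0 h was lost without gp130flox 8 (0.89, 0.065), 9 (0.83, 0.083) or 11 (0.85, 0.083), and without the gp130- array of preparation 9 (0.70, 0.17).

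Abcg8 was near the floor, detected on 8 of 13 gp130- arrays and 1 of 23 gp130flox arrays of numbers 6 to 11. It averaged 4.72, 4.48 and 5.15 in gp130- preparations 6, 7 and 9, against 4.35, 4.49, 4.36, 4.28 and 4.33 in gp130flox preparations 7 to 11, so that the genotypes overlapped. It was called at 3 h only, with 4.68 and 5.64 in gp130- arrays, against 4.33, 4.33, 4.34 and 4.22 in gp130flox arrays, none of which detected it. The difference of 0.86 ± 0.21 (SE, adjusted p = 0.0078) is a bound, at least 1.44-fold higher in gp130- cells, and it was lost without gp130- 9 (0.38, 0.42). The starts of Abcg5 and Abcg8 lie head to head, 110 bases apart, on chromosome 17. Their windows, chr17:84682962-84683261 (minus strand) and chr17:84682871-84683170 (plus strand), share 209 bases, and the window of Abcg5 is shown with the shared bases in capitals. Neither motif named above was found in these windows.
Abcg5: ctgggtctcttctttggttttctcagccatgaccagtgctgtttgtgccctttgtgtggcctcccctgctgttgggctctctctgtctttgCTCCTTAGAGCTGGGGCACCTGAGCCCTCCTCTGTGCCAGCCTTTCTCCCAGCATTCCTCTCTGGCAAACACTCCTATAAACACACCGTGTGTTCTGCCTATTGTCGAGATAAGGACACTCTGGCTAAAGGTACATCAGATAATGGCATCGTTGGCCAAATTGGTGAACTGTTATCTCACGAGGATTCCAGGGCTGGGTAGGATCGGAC

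**Figure D2:**
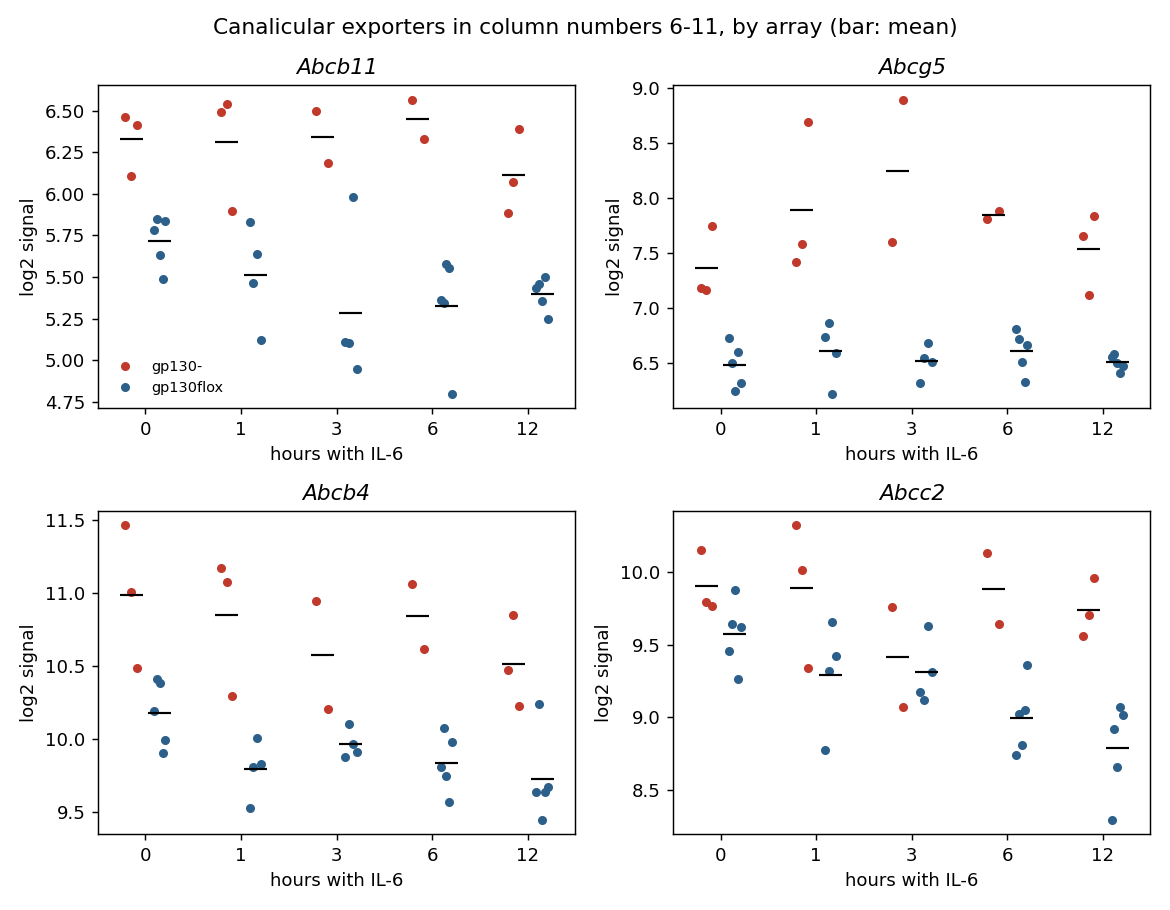
Log2 signal (y axis) at each hour with IL-6 (x axis) of Abcb11, Abcg5, Abcb4 and Abcc2 in numbers 6 to 11; each point is 1 array (gp130- left of gp130flox at each time, times evenly spaced) and bars mark group means. Abcg5 reads 7.12 or more in all gp130- arrays and 6.86 or less in all gp130flox arrays.

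Abcb1b, a multidrug exporter of the canalicular membrane, was the listed canalicular gene that was tested and not called. It averaged 8.53, 8.58 and 8.00 in gp130- preparations 6, 7 and 9, against 8.50, 8.43, 8.80, 8.78 and 8.78 in gp130flox preparations 7 to 11. Its difference was negative at each time, between -0.82 ± 0.31 at 3 h (SE, adjusted p = 0.11) and -0.03 at 12 h. Abcb1a and Abcg2, the other listed exporters of drugs, were detected on 0 arrays and not tested.

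Of 7 subfamily C exporters of the blood-facing or plasma membrane, all tested, 2 were called higher in gp130- cells. Abcc4 (Mrp4), which exports bile salts and cyclic nucleotides to the blood, averaged 8.50, 8.62 and 8.26 in gp130- preparations 6, 7 and 9, against 7.63, 7.80, 8.17, 8.04 and 8.25 in gp130flox preparations 7 to 11. It was called at 0 h, with 9.07, 8.43 and 8.91 in gp130- arrays, against 7.77, 8.01, 8.29, 8.01 and 8.31 in gp130flox arrays. The difference there was 0.72 ± 0.21 (SE, adjusted p = 0.043), lost without gp130- 6 (0.59, 0.28) or 9 (0.67, 0.11) and without gp130flox 7 (0.65, 0.089), 8 (0.71, 0.10) or 10 (0.71, 0.092), and at 3 h it was -0.09. Abcc6, whose loss in humans causes the mineralisation disorder pseudoxanthoma elasticum, averaged 5.77, 5.87 and 6.26 in gp130- preparations 6, 7 and 9, against 5.22, 5.49, 5.49, 5.21 and 5.48 in gp130flox preparations 7 to 11. It was called at 1 h (0.73 ± 0.20, SE, adjusted p = 0.024) and 3 h (1.00 ± 0.23, 0.0044). Without gp130- 9, which read 6.54 at 3 h, the difference there was 0.64 (0.20) and that at 1 h was 0.47 (0.20). The call at 1 h was also lost without gp130- 7 (0.81, 0.063) and without gp130flox 8 (0.67, 0.080), 9 (0.75, 0.056) or 11 (0.75, 0.059).

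Abcc3 and Abcc5 were the members with lower gp130- values in each preparation, and neither reached the fold of 1.5. Abcc3 (Mrp3), which exports conjugates to the blood, averaged 9.49, 9.30 and 9.49 in gp130- preparations 6, 7 and 9, against 9.57, 9.82, 9.70, 9.56 and 9.75 in gp130flox preparations 7 to 11. Its difference at 12 h was -0.51 ± 0.16 (SE, adjusted p = 0.041). Abcc5 (Mrp5), an exporter of cyclic nucleotides, averaged 6.16, 6.19 and 6.19 in gp130- preparations, against 6.61, 6.42, 6.41, 6.39 and 6.38 in gp130flox preparations. Its difference at 6 h was -0.56 ± 0.17 (SE, adjusted p = 0.026). Over the subfamily C members called at no time, differences lay between this value of Abcc5 and 0.55 of Abcc12 at 12 h (0.21).

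Of 13 genes listed for cellular lipid export and trafficking, 8 were tested and 3 of them, all of subfamily A, were called higher in gp130- cells. Abca6, Abca8a and Abca8b are close relatives in 1 gene cluster whose substrates are less well defined. Abca6 averaged 5.99, 5.87 and 5.48 in gp130- preparations 6, 7 and 9, against 5.05, 5.06, 5.43, 5.35 and 5.16 in gp130flox preparations 7 to 11. At 12 h its arrays read 6.05, 5.86 and 5.90 in gp130- cells, against 4.62, 4.48, 4.63, 4.91 and 4.86 in gp130flox cells. The genotypes were widely apart then, while at 0 h they overlapped, with 5.97, 5.95 and 5.81 in gp130- cells, against 5.25, 5.74, 6.20, 5.29 and 5.52 in gp130flox cells. The difference was 0.31 at 0 h, 0.39 at 1 h, 0.01 at 3 h and 0.73 at 6 h (adjusted p = 0.11), and it was called at 12 h (1.24 ± 0.25, SE, 0.00094), also without any 1 preparation. The call rests on the brightest of 3 probes: in a fit over all probes the other probes of Abca6 gave 0.71 (0.16) and -0.03 (0.94) at 12 h, on probes detected on 58 and 23 of the 61 arrays.

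Abca8b averaged 6.08, 6.31 and 5.33 in gp130- preparations 6, 7 and 9, against 4.76, 4.89, 4.98, 5.32 and 5.15 in gp130flox preparations 7 to 11, where preparation 9 of gp130- lay next to preparation 10 of gp130flox. It was called at 6 h (1.27 ± 0.35, SE, adjusted p = 0.014) and 12 h (0.97 ± 0.30, 0.035). The call at 6 h was lost without gp130- 6 (1.19, 0.094) or 7 (1.35, 0.091) and without gp130flox 8 (1.19, 0.050). That at 12 h was lost without gp130- 7 (0.72, 0.25) and without gp130flox 7 (0.85, 0.11), 9 (0.87, 0.090) or 11 (1.01, 0.057). Both calls rest on the brightest probe of Abca8b. In a fit over all probes its other probes gave 0.55 (adjusted p = 0.041, under the fold) and 0.47 (0.15) at 6 h. At 12 h they gave 0.25 (0.39) and 0.28 (0.38). These probes were detected on 8 and 12 of the 61 arrays. Abca8a averaged 5.33, 4.93 and 4.68 in gp130- preparations 6, 7 and 9, against 4.34, 4.31, 4.40, 4.24 and 4.37 in gp130flox preparations 7 to 11. It was detected on 10 of 13 gp130- arrays and 2 of 23 gp130flox arrays, and was called at 0 h (0.65, 0.027), 1 h (0.67, 0.024) and 6 h (0.90, 0.0028). At 1 and 6 h no gp130flox array detected it, so these differences are bounds, at least 1.27-fold and at least 1.43-fold higher in gp130- cells. At 6 h, without the gp130- array of preparation 6 the difference was 0.75 (0.098). Without preparation 6 of gp130- the calls of Abca8a at 0 h (0.45, 0.14) and 1 h (0.47, 0.085) were lost, as they were without gp130- 7 and without 3 of the gp130flox preparations at each time.

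Members of the cell's interior were not called. The 5 tested mitochondrial or lysosomal ones had 0 calls, and differences between -0.23 (Abcb8 at 6 h) and 0.46 (Abcb6, a porphyrin transporter, at 1 h, adjusted p = 0.17). The peroxisomal members Abcd2 and Abcd3 had none either, with -0.40 for Abcd3, which takes acyl-CoA into the peroxisome, at 3 h (0.29). Of the 4 proteins without membrane spans, Abce1, which recycles ribosomes, reached 0.85 at 6 h (0.12), and Abcf1 lay at -0.33 at 12 h (0.31). Over all 26 members called at no time the differences ran from -0.82 to 0.85. The genes of the family below the filter were Abca1, Abca13, Abca16, Abcb1a and Abcg2, detected on 0 arrays, Abcg3 and Abcg4 on 1, Abca14, Abcb5 and Abcc8 on 2, and Abca9 and Abca12 on 3. The peptide transporters Tap1 and Tap2, family members with other symbols, were tested and not called.

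Other genes of bile formation moved in the same cultures. Of 15 listed regulators of ABC genes, 11 were tested and 3 were called higher in gp130- cells of numbers 6 to 11. At 1 time or more, 7.53% of all genes were called higher there and 7.76% lower. Nr1h4 averaged 8.47, 8.40 and 7.74 in gp130- preparations 6, 7 and 9, against 7.61, 7.62, 7.44, 7.40 and 7.60 in gp130flox preparations 7 to 11, and was called at 6 h (1.04 ± 0.24, SE, adjusted p = 0.0033) and 12 h (0.70 ± 0.21, 0.026). Nr1i2 (PXR), a receptor for drugs and bile acids, was called from 1 h to 12 h, with 0.81, 1.54, 1.21 and 0.96, and Nr1i3 (CAR) likewise, with 1.00, 1.42, 1.08 and 0.74. These receptors were thus higher in the same cultures as Abcb11 and Abcc2, and their part in the transporter differences was not tested.

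Of 14 genes listed for bile acid uptake, efflux and synthesis, 10 were tested. In gp130- cells 6 were called higher and 1 lower, beside 7.53% and 7.76% of all genes. The uptake carrier Slco1b2 averaged 9.59, 9.20 and 9.06 in gp130- preparations 6, 7 and 9, against 7.89, 7.83, 7.32, 7.39 and 7.27 in gp130flox preparations 7 to 11, with differences of 1.32, 1.78, 2.13, 2.22 and 1.51 at 0, 1, 3, 6 and 12 h. Cyp8b1, which sets the share of cholic acid, differed by 1.26, 1.92, 2.19, 1.66 and 1.25 at these times, all called. Cyp7b1, Baat, Slco1a4 and Cyp27a1 were the others called higher, and the aminophospholipid flippase Atp8b1 was called lower at 3 h (-1.38), 6 h (-1.08) and 12 h (-0.86). Of 10 symbols listed for the canalicular scaffold, 8 were tested, and Ezr and Nherf1 were not. Pdzk1, which anchors membrane transporters, was called higher at each time (1.35 to 1.79), and Msn, Slc9a3r1 and Myo5b were called lower. Over all arrays 0 genes of the bile acid list and 0 of the scaffold list were called by limma, and 1 and 0 genes had an unadjusted p under 0.05 at 1 time or more.

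Some markers of cell types moved with the genotype in numbers 6 to 11, where 7.53% of all genes were called higher and 7.76% lower. The summed signals below are log2 ranges over single arrays, not over preparation means. For the hepatocyte markers the sum was 15.82 to 16.18 in gp130- arrays and 15.36 to 15.95 in gp130flox arrays. Of these markers 5 of 10 tested, Alb, Cps1, Cyp2e1, Cyp3a11 and G6pc, were called higher. Cholangiocyte markers summed to 9.11 to 9.94 in gp130- and 9.85 to 11.01 in gp130flox arrays. Among them 1 of 3 tested, Sox9, was called lower, and Epcam and Spp1 were not tested. Kupffer cell markers summed to 9.57 to 10.52 in gp130- and 10.03 to 10.69 in gp130flox arrays, with 1 of 5 tested, Vsig4, called lower at 0 h. Endothelial markers summed to 7.74 to 8.63 in gp130- and 7.80 to 8.42 in gp130flox arrays, with 0 of 5 called. Stellate cell markers summed to 8.85 to 9.76 in gp130- and 9.20 to 10.06 in gp130flox arrays, with 1 of 5 tested, Acta2, called lower at 12 h. Markers of dividing cells summed to 6.45 to 7.24 in gp130- and 6.79 to 7.54 in gp130flox arrays, with 0 of 3 called. The part of these markers in the transporter differences was not tested.

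Over all 61 arrays, 1 of 36 members was called between the genotypes (1.69% of all genes), Abca6 at 12 h with 1.11 ± 0.29 (SE, adjusted p = 0.039), a call that was lost without most single preparations (0.98 to 1.16, adjusted p up to 0.13) and without both high in Xist (1.13, 0.10). At an unadjusted p under 0.05, limma gave 0, 2, 5, 4 and 4 members at 0, 1, 3, 6 and 12 h. With the set as a term, 3 members were called, where 7.68% of all genes were: Abcb1b lower in gp130- cells at 3 h (-0.78 ± 0.24, SE, 0.035), Abcg5 higher at 6 h (1.08 ± 0.36, 0.048) and Abca6 higher at 12 h (0.96 ± 0.22, 0.0028). Within numbers 1 to 4, 1 member was called (2.47% of all genes). It was Abca3, a phospholipid transporter known from lung surfactant, with 10.46, 10.75 and 10.36 in gp130- arrays of preparations 2, 3 and 4 at 12 h, against 9.64 and 9.88 in gp130flox arrays of preparations 1 and 2. The difference was called at 0 h (0.73 ± 0.14, SE, 0.037), 6 h (0.73, 0.017) and 12 h (0.77, 0.016), and at 12 h only once the preparation entered as a random block. The call of Abca3 at 12 h was lost without gp130- 2 (0.80, 0.10) or 3 (0.65, 0.16) or gp130flox 1 (0.65, 0.45), as were those at 0 and 6 h without any of these, without gp130flox 2 and, at 0 h, without gp130- 4 (0.68, 0.071). Without gp130flox 2, 4 members were called in this set, and the share of all genes was not counted for that fit. Without both preparations high in Xist, which left 1 gp130- array at each time, Abca3 differed by 0.85 at 0 h (0.10), 0.83 at 6 h (0.068) and 0.60 at 12 h (0.20) and was not called; the part of Xist or sex in its difference was not tested.

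Abcb11, Abcb4, Abcc2, Abcg5 and Abcg8 did not part the genotypes in numbers 1 to 4. Abcb11 averaged 4.38, 4.25 and 4.56 in gp130- preparations 2, 3 and 4, against 4.61 and 4.44 in gp130flox preparations 1 and 2, and it was detected on 6 of 25 arrays. Abcg5 averaged 6.33, 5.79 and 7.99 in gp130- preparations, against 6.33 and 5.79 in gp130flox preparations. Abcb4 averaged 9.08, 9.11 and 11.26 in gp130- preparations, against 10.14 and 8.28 in gp130flox preparations. Preparation 4 of gp130- was the highest in Abcg5 and Abcb4, and the spread between preparations of 1 genotype was larger than the difference between the genotypes. Abcb1b did part the genotypes there, at 8.22, 7.47 and 7.28 in gp130- preparations 2, 3 and 4, against 8.55 and 8.26 in gp130flox preparations. In this set 4 members had all gp130- preparation means above all gp130flox ones, as did 12% of all genes. For 2 members, Abcb1b among them, all lay below, as for 13.7% of all genes. The genotype difference itself differed between the sets for 4 of 36 members at 1 time or more, where it did for 3.99% of all genes. Abcb11 and Abcc6 were more positive in numbers 6 to 11, and Abcc5 and Abca3 more negative. Like Abcb11, Abcc6 was near the floor in numbers 1 to 4, detected on 10 of 25 arrays, which limits the difference measured there.

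Few members changed after IL-6. With 10 group means and no block, 0 of 36 members were called at any time after IL-6 in gp130flox cells (0.115% of all genes) and 0 in gp130- cells; at an unadjusted p under 0.05, limma gave 3 members in gp130flox cells and 1 in gp130- cells at 1 time or more. Arrays of 1 preparation deviated together, so the preparation was taken as a block, which changed these calls. With the block, 2 members fell in gp130flox cells (0.469% of all genes) and 0 rose (0.995%), and 1 member fell in gp130- cells (0.0411% called in either direction).

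Abca6 at 12 h stood at -0.67, -0.52, -0.63, -1.27, -1.57, -0.38 and -0.66 from its own 0 h array in gp130flox preparations 1, 2, 7, 8, 9, 10 and 11. It was lower in 7 of 7 preparations, of both sets. The change was -0.63 ± 0.13 at 6 h (SE, adjusted p = 0.0036) and -0.81 ± 0.13 at 12 h (7.7e-05). Its call at 12 h held without any 1 preparation, while that at 6 h was lost without preparation 8 (-0.49, 0.070) or 9 (-0.55, 0.026, under the fold). In gp130- preparations 2, 3, 4, 6, 7 and 9 the change of Abca6 at 12 h was -0.15, 0.06, -0.07, 0.08, -0.09 and 0.09, within a narrow band around 0.

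Abcc2 at 12 h stood at -0.61, -0.04, -1.16, -0.72, -1.21, -0.19 and -0.60 from 0 h in gp130flox preparations 1, 2, 7, 8, 9, 10 and 11. All were negative, that of preparation 2 by the least. The change was -0.65 ± 0.13 (SE, adjusted p = 0.0020), and without preparation 7 (-0.56) or 9 (-0.55) it was under the fold. In gp130- preparations 2, 3, 4, 6, 7 and 9 it was 0.07, 0.46, -0.30, -0.59, -0.09 and 0.19, on both sides of 0. Abcb4 was also lower at 12 h in 7 of 7 gp130flox preparations, at -0.40 in the blocked fit (0.032), which is under the fold. Within numbers 6 to 11 alone the blocked changes at 12 h were -0.90 for Abca6 (0.0085) and -0.78 for Abcc2 (0.0048), and within numbers 1 to 4 they were -0.60 for Abca6 (0.039) and -0.32 for Abcc2 (0.98), which was not called there. In that set alone, 2 members rose with the block, where 2.5% of all genes did, and 2 fell, where 1.91% did. Abca2, a lipid transporter of lysosomes, rose at 3 h (0.77, 0.034), as did Abcc3 (0.82, 0.043), and Abce1 fell at 3 h (-0.62, 0.048) beside Abca6 at 12 h. These changes rest on 2 gp130flox preparations. In the same fit 533 of all genes were called at 3 h, against 6, 20 and 12 at 1, 6 and 12 h, so the 3 h calls are not particular to these members.

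In gp130- cells the member that fell was Abcc4 at 3 h, with -0.70 ± 0.14 in the blocked fit (SE, adjusted p = 0.024). Its change was -0.35, -0.07, -1.18, -1.04 and -1.25 in gp130- preparations 2, 3, 4, 6 and 9, large in preparations 4, 6 and 9 and small in the other ones. The call was lost without gp130- 2 (-0.78, 0.079), 4 (-0.59, 0.76), 6 (-0.63, 0.19) or 9 (-0.58, 0.33), and without both preparations high in Xist it was -0.99 (0.0093). In gp130flox preparations 1, 2, 7, 8, 9 and 10 the change of Abcc4 at 3 h was -0.59, 0.17, -0.13, -0.14, -0.13 and 0.09. The difference of the IL-6 changes between the genotypes was called for 0 members, with or without the block; at an unadjusted p under 0.05 limma gave 9 members at 1 time or more with the block and 0 without it. With the block it was 0.80 ± 0.20 for Abca6 at 12 h (SE, adjusted p = 0.060), 0.60 ± 0.20 for Abcc2 at 12 h (0.26) and -0.58 ± 0.19 for Abcc4 at 3 h (0.22), so that a difference in response is not shown for these members.

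**Figure D3:**
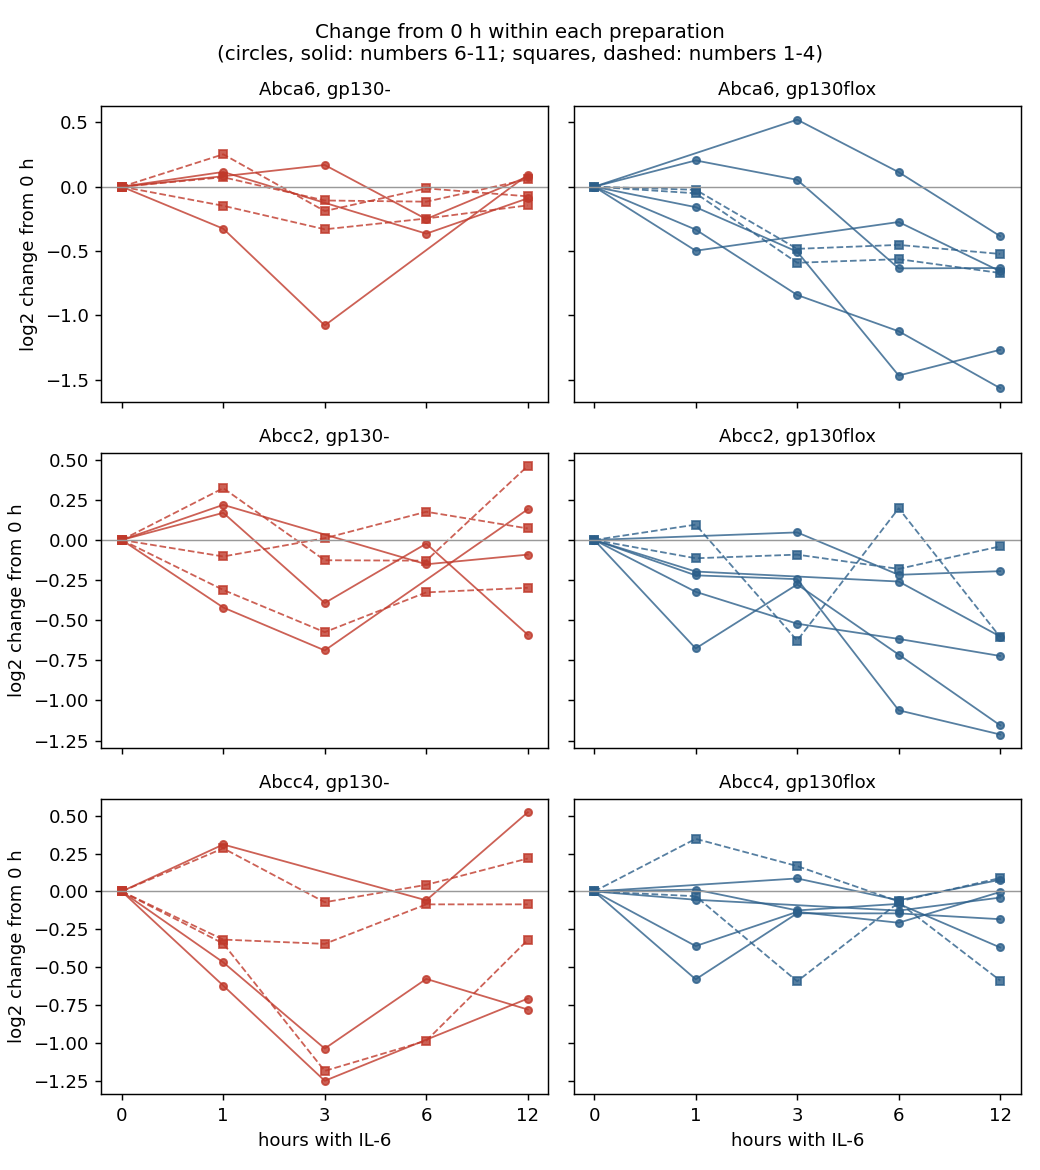
Log2 change from the 0 h array of the same preparation (y axis) against hours with IL-6 (x axis, times evenly spaced) for Abca6, Abcc2 and Abcc4, gp130- left and gp130flox right, 1 line per preparation (solid for numbers 6 to 11, dashed for 1 to 4). At 12 h Abca6 lies below 0 in 7 of 7 gp130flox preparations and near 0 in the gp130- ones.

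Several members separated the sets of preparations irrespective of genotype, given here as a description because the sets were seen in these data. With a difference of means over 1 on the log2 scale and no overlap of preparations, 3 members (8.33%) were higher in numbers 6 to 11, where 6.91% of all genes were. In the same way 4 (11.1%) were lower, where 8.26% were. Both shares lay near those of all genes, so the separation is not particular to the members. Abcc12 was higher by 1.37, Abcb11 by 1.31 and Abcc6 by 1.11. Abcb11 was detected on 36 of 36 arrays of numbers 6 to 11 and on 6 of 25 arrays of numbers 1 to 4, and Abcc6 on 36 and 10. The difference was -3.00 for Abcc4, -1.56 for Abca7, -1.40 for Abca3 and -1.01 for Abcc5. Abcc4, the largest of these members, averaged 7.63 to 8.62 over the preparations of numbers 6 to 11, against 10.69 to 12.30 over those of numbers 1 to 4. That of Abcc2 was -1.07, with overlapping preparations. The median over members was -0.01 and that over all genes -0.03.

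Other genes moved with the sets, among them 8 of 10 hepatocyte markers that were higher without overlap in numbers 6 to 11, 1 that was lower (Apob, at 7.91 to 9.62 in numbers 6 to 11, against 9.81 to 10.59 in numbers 1 to 4) and 3 of 3 markers of dividing cells that were lower. Over single arrays, the summed hepatocyte markers lay at 15.36 to 16.18 in numbers 6 to 11, against 12.41 to 14.19 in numbers 1 to 4. Those of dividing cells lay at 6.45 to 7.54, against 9.75 to 11.63. Endothelial markers lay at 7.74 to 8.63 in numbers 6 to 11, against 6.64 to 7.34 in numbers 1 to 4, and Kupffer cell markers at 9.57 to 10.69, against 7.07 to 10.17. Cholangiocyte markers lay at 9.11 to 11.01, against 10.10 to 11.99, and stellate cell markers at 8.85 to 10.06, against 8.94 to 11.63. Their part in the set differences of the transporters was not tested.

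**Figure D4:**
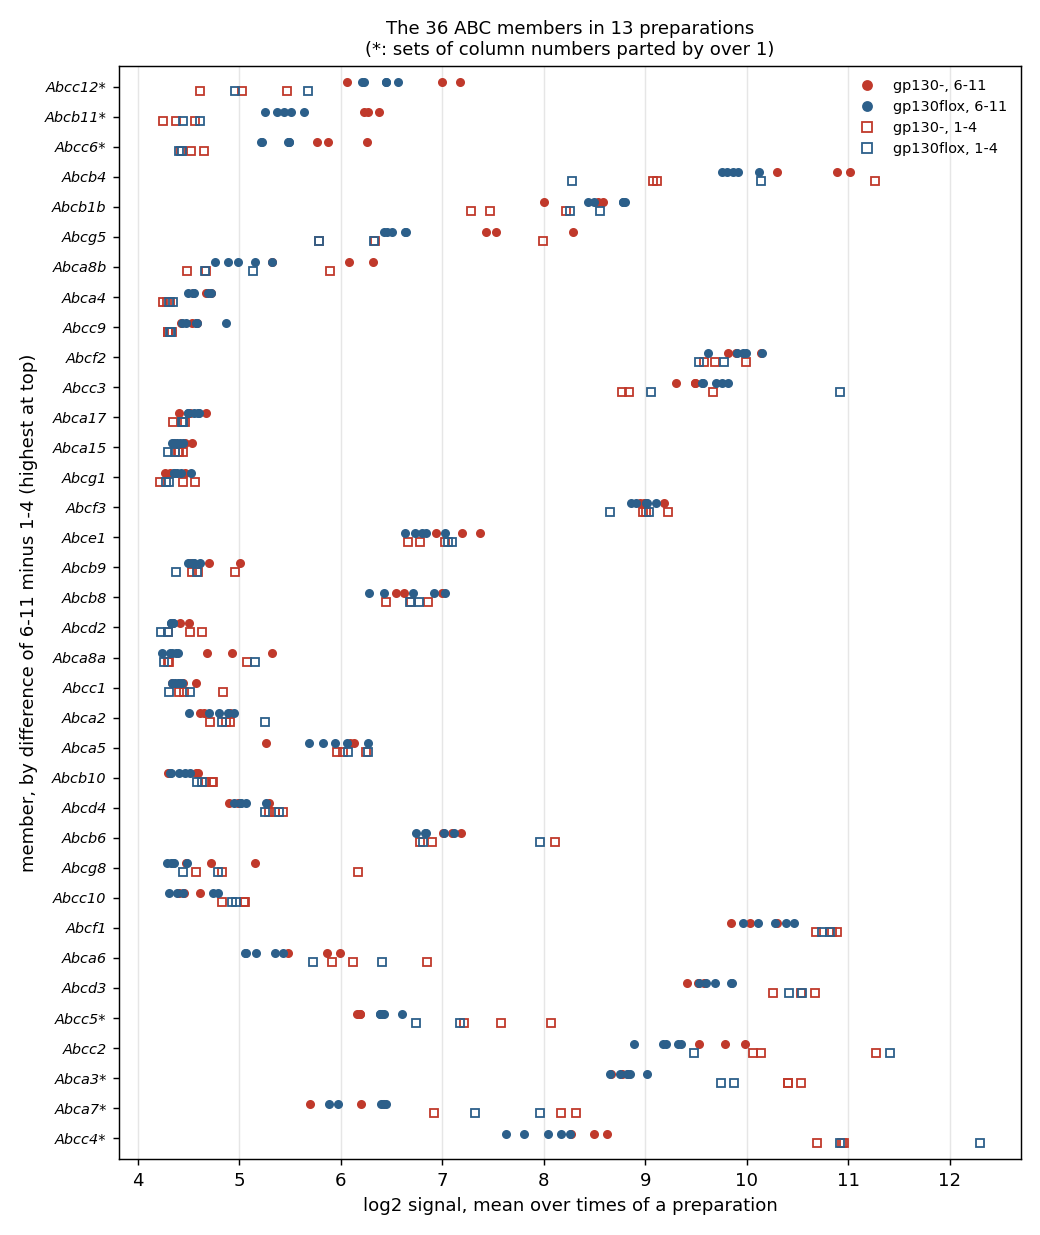
Log2 signal (x axis) of the 36 members (1 row each, ordered by the difference between the sets) in the 13 preparations, each averaged over its times; filled circles are numbers 6 to 11 and open squares numbers 1 to 4, in red for gp130- and blue for gp130flox. Asterisks mark the 7 members that part the sets, among them Abcc4 (difference -3.00) and Abcb11 (1.31).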

How the data were processed

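Hepatocyte RNA was hybridised to Illumina MouseWG-6 v2 arrays. The authors deposited linear signal intensities without normalization for 45281 probes with a detection p-value each, which per the labels came from GenomeStudio 1.6.0, and a cubic spline normalized intensity table whose columns could not be tied to the column numbers. No genome build is given in the sources used here. The function neqc of limma 3.58.1 (R 4.3.3) subtracted background estimated through those p-values and applied quantile normalization and log2 after an offset of 16. A single gene symbol belonged to 34885 probes, several to 18 and none to 10378; 23163 were detected (p under 0.05) on 5 or more arrays, and the brightest probe stood for each of 12157 genes out of 19057. Several probes passed for 13 members. lmFit and eBayes were fitted to 10 group means, with Benjamini-Hochberg adjustment over all genes, and no array was dropped or imputed. The fit within a set used that set's arrays only. No pair of arrays was identical. Arrays of the same genotype and number deviated together in 114 pairs (median r = 0.857, lowest 0.276), and for 43 of 61 the nearest array had the same number, so the number served as a block (random between genotypes, with statmod 1.5.0, fixed for IL-6). Where a probe was detected on no array of 1 group, its fold is a lower bound against the dimmest detected signal. Named were the members called in a comparison, plus those parting the sets or the genotypes by preparation. The scripts were tested on simulated data. The members, sets and lists were chosen with earlier results of these data known. Sequences and gene starts are from RefSeq.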

Additional observations from a re-analysis of the deposited data

Results flagged for a closer look

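Of 74 groups of 4 or more arrays examined, 4 held an array far from the others; chance marks about 1 group in 20. The ratio is the gap to the nearest array over the whole range of the group. Signals were examined only in gp130flox cells of numbers 6 to 11, for the members called there. The other groups were changes from 0 h of Abca6, Abcc2 and Abcc4 in both genotypes. All 4 marked groups were signals, and signals of gp130- cells were not examined. Abcb11 at 3 h had preparation 9 at 5.98 and the others at 4.95 to 5.11 (ratio 0.844, n = 4). Abcb4 at 12 h had preparation 8 at 10.24 and the others at 9.45 to 9.67 (ratio 0.720, n = 5). Abcc6 at 1 h had preparation 8 at 5.08 and the others at 5.31 to 5.34 (ratio 0.868, n = 4). Abcg8 at 3 h had preparation 10 at 4.22 and the others at 4.33 to 4.34 (ratio 0.914, n = 4), all near the floor.

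The genotype difference (gp130- minus gp130flox) differed between the sets in limma's test of numbers 6 to 11 minus 1 to 4. For Abcb11 it differed by 1.24 at 3 h (adjusted p = 0.022), being 1.06 in numbers 6 to 11 and -0.18 in numbers 1 to 4. At 6 h it differed by 1.23 for Abcb11 (0.017), being 1.12 and -0.11. For Abcc6 it differed by 1.31 at 3 h (0.0092), being 1.00 in numbers 6 to 11 and -0.30 in numbers 1 to 4. Abcb11 and Abcc6 were detected on only 6 and 10 of the 25 arrays of numbers 1 to 4. The floor therefore limits the genotype difference that could be measured for them there. For Abcc5 it differed by -1.59 at 6 h (0.010), being -0.56 and 1.03. For Abca3 it differed by -1.16 at 12 h (0.0068), being -0.39 in numbers 6 to 11 and 0.77 in numbers 1 to 4.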

How the results depend on the processing

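Within numbers 6 to 11, 10 members were called; other normalizations, offsets, probe choices and weights and the random replicate block gave 8 to 13, and leaving out 1 preparation gave 9 to 12. With the random block the calls of Abcc4 and Abcg8 at 1 h were added. Over all arrays 1 member was called, against 0 with the authors' cubic spline values, 0 with quantile normalization without background correction, 0 with an offset of 50, 0 without the detection filter and 0 with only the compared groups fitted. It was 12 with array weights, 3 with the set term (7.68% of all genes) and 2 with the random replicate block (2.34%). It was 0 to 2 when 1 preparation was left out, and the cause was not tested. For the alternatives other than the set term and the replicate blocks, the share of all genes called was not counted. Counts from those alternatives are therefore not a result about the members. Between IL-6 and 0 h in gp130flox cells, 0 members were called, against 1 with array weights, 2 with the fixed replicate block, 2 with that block within numbers 6 to 11, 4 within numbers 1 to 4 and 0 in each leave-out. In gp130- cells 0 were called, against 1 with the fixed replicate block and 0 in each leave-out, as also for the difference of the changes. Within numbers 1 to 4, 1 was called, and 0 to 4 with 1 left out. Without both gp130- preparations high in Xist, an alternative chosen after seeing the data, 2 members were called over all arrays, 3 within numbers 1 to 4 and 6 parted the sets. The sets were parted by 7 members, by 3 with quantile normalization and 3 with an offset of 50, and by 6 to 8 with 1 left out. The change of Abcc4 at 3 h in gp130- cells reversed with array weights, to 0.16 (adjusted p = 0.99). Of the values of single members under the other alternatives, 146 kept their side of the threshold, 30 lost the call, 9 gained it and 1 reversed; with 1 array or preparation left out, 362 kept it, 127 lost it and 0 reversed. The cubic spline table was not run for the sets and blocks, since its columns carry no preparation number. Signals near the floor of 4, as for Abcg8 and Abca8a, and for Abcb11 and Abcc6 in numbers 1 to 4, limit the fold that can be measured.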

Other observations

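Probes other than the brightest are given here for the members that changed with IL-6, and above for Abca8b. A further probe of Abcc2 gave -0.91 at 12 h in gp130flox cells with the block (adjusted p = 0.027) and a genotype difference of 1.71 at 6 h in numbers 6 to 11 (0.0045). The other probes of Abca6 gave -0.57 (0.10) and -0.16 (0.54) at 12 h in gp130flox cells, and genotype differences in numbers 6 to 11 of 1.09 (0.044) and 0.05 (0.89) at 6 h and of 0.71 (0.16) and -0.03 (0.94) at 12 h. The regulators Nr1h4 and Nr1i2 were also called over all arrays: Nr1h4 was higher in gp130- cells by 0.93, 0.93, 1.10, 1.31 and 1.11 at 0, 1, 3, 6 and 12 h, and Nr1i2 by 1.13, 0.97 and 0.86 at 3, 6 and 12 h. Within numbers 1 to 4 the difference of Nr1h4 ran from 1.30 to 1.73 over these times. Abcb11 was called at none of them there, but it was detected on only 6 of 25 arrays, so the floor could hide a difference. The part of Nr1h4 in the difference of Abcb11 was not tested.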
